A study of Homo sapiens with 6 samples.

Results

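The 1219 bins of 20 bases described here are the places of the transcriptome where RNA recovered with CELF1 most exceeded the input RNA of the same melanoma cells. A bin was a member when it held more than 100 reads of the CELF1 immunoprecipitate (IP) in each of the 3 IP samples and when those reads were, in each, at least 8 times its input reads. A bin without any input read was treated as if it held 1. Of the 282942 bins listed in all 3 samples, 5458 had more than 100 IP reads in each, and 1219 of these, or 22.3%, passed the ratio as well. The members were therefore selected on their IP and input reads, and these values are given as a description without a test. The other 4239 bins with more than 100 IP reads in all samples served as background.

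CELF1 was precipitated by RIP-Seq from formaldehyde-fixed cells of SK-Mel-103 and UACC-62, both established human melanoma lines, with an antibody to CUGBP1, the older name of CELF1. The IP samples were one of SK-Mel-103 (R1) and a pair of UACC-62 (R1 and R3), each set against its own input RNA, and the labels give no treatment or genetic change for either line. Values in a series of 3 are given in that order, namely SK-Mel-103, UACC-62 R1 and UACC-62 R3. SK-Mel-103 had a single sample and thus no estimate of error, and nothing in the labels says whether the UACC-62 replicates came from separate cultures. The listed bins held 10958459, 11333805 and 14436573 IP reads and 8453517, 10161917 and 8900292 input reads, respectively. No IgG library was analysed here, so that IP over input measures recovery with the antibody beads relative to the lysate and not recovery relative to a control antibody. Of the 10 melanocyte lineage genes looked up, MITF, SOX10 and PAX3 had bins listed in all samples, with none above 100 IP reads, whereas PMEL, MLANA, TYR, TYRP1, DCT, GPR143 and SLC45A2 had no bin listed in all 3.

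CELF1 (CUGBP Elav-like family member 1) is an RNA-binding protein with RNA recognition motifs that acts on alternative splicing in the nucleus, and on deadenylation, stability and translation of mRNAs in the cytoplasm. It is best known for contacts with UGU-rich and GU-rich elements (GREs) of 3′ UTRs, the untranslated part of an mRNA behind the stop codon. The sequences that follow show such bins on the strand of the transcript.

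For the protein-coding genes with 22 member bins or more, and for UBXN7, which held the 3′ UTR bin with the highest ratio, the bin with the highest ratio in its weakest sample is printed 5′ to 3′, with every UGU in capitals. Coordinates are those of GRCh37.
CELF1 (chr11:47487701-47487720, minus strand): cacagaguuUGUGUagugaa
TNPO1 (chr5:72207381-72207400, plus strand): acaucaugggauauauauaa
MRPL19 (chr2:75887301-75887320, plus strand): cagcuccaagauuuaucuuu
CDK6 (chr7:92243521-92243540, minus strand): uuucuucccuuuuuuUGUug
DCBLD2 (chr3:98514821-98514840, minus strand): agguuUGUagcuuuuccuua
FOXJ3 (chr1:42643381-42643400, minus strand): cacugggaagccagccaugg
RRM2 (chr2:10271341-10271360, plus strand): cuuUGUcuugcauUGUgagg
RAP2A (chr13:98119601-98119620, plus strand): uucuccuuugguuUGUagaa
CCND1 (chr11:69468661-69468680, plus strand): ucUGUuaUGUacuagUGUuc
CREBL2 (chr12:12795861-12795880, plus strand): aUGUuucugaagaaaauugg
CNOT6 (chr5:180003481-180003500, plus strand): uauauuugaauuuggggcag
FGF13 (chrX:137714061-137714080, minus strand): cauUGUauuuggcacaugaa
UHMK1 (chr1:162499341-162499360, plus strand): uugauaaugcuuucugaUGU
UBXN7 (chr3:196075721-196075740, minus strand): cagcagUGUcUGUgcaggcu
The trinucleotide stands 3 times in the bin of CCND1 and not at all in those of TNPO1, MRPL19, FOXJ3 and CNOT6, so that it was frequent among the strongest bins without being shared by all of them. These sequences occur once in the genome except that of CELF1, which occurs 4 times.

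Perfect or nearly perfect GREs were rare. The consensus elements used for CELF1 are the 11-base sequences UGUGUGUGUGU and UGUUUGUUUGU. Among the 896 member bins of 3′ UTRs, 5 held one of them without a mismatch (0.558%), 12 with at most 1 mismatch (1.34%) and 32 with at most 2 (3.57%). Among the 3492 other 3′ UTR bins above 100 IP reads, the counts were 5 (0.143%), 15 (0.430%) and 74 (2.12%). Bins with at most 1 mismatch and high ratios are shown next, with the 11 bases closest to UGUGUGUGUGU in capitals.
NACC2 (chr9:138899301-138899320, minus strand): gUGUGUGUGCGUcugugugc
TNPO1 (chr5:72206541-72206560, plus strand): agcUGUGUGCGUGUgaauuu
FOXJ3 (chr1:42643461-42643480, minus strand): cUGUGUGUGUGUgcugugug
CDK6 (chr7:92244041-92244060, minus strand): uUGAGUGUGUGUgugcaugu
The bin of NACC2 held 122, 534 and 342 IP reads against 1, 16 and 11 input reads.

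The rule was met by a wide margin in many bins. The median IP reads of a member were 179, 267 and 281, beside median input reads of 11, 14 and 13. In the background bins, the median IP reads were 188, 190 and 271 and the median input reads 71, 83 and 73. Members and background thus differed by their input more than by their IP reads. The median ratio of members was 16.1, 18.8 and 21.3, and 437 members had a ratio of 16 or more in every sample. The replicates of UACC-62 differed by a median of 0.49 (log2 of IP over input) in the same member bin, and SK-Mel-103 differed from the mean of UACC-62 by a median of 0.56. In background bins these medians were 0.73 and 0.50. Ratios here and below were not scaled for depth. Over all listed bins, IP over input was 1.296, 1.115 and 1.622, so that differences in ratio between samples include one of depth.

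The threshold cut through a continuous range. Just inside it lay a bin of the G3BP1 3′ UTR, with 136 IP and 17 input reads in UACC-62 R1, a ratio of exactly 8.0. Just outside it lay a bin of CELF1 itself, with 383 IP and 48 input reads in the same sample, a ratio of 7.98. A bin of OSBP entered with 1 IP read above the limit in UACC-62 R1, whereas another bin of CELF1 missed the limit with 100 IP reads in UACC-62 R3, despite a ratio of at least 16.7 in each sample. The sample with the lowest ratio was SK-Mel-103 for 570 members, UACC-62 R1 for 390 and UACC-62 R3 for 259. Applied without SK-Mel-103, the rule selected 2926 bins.

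**Figure D1:**
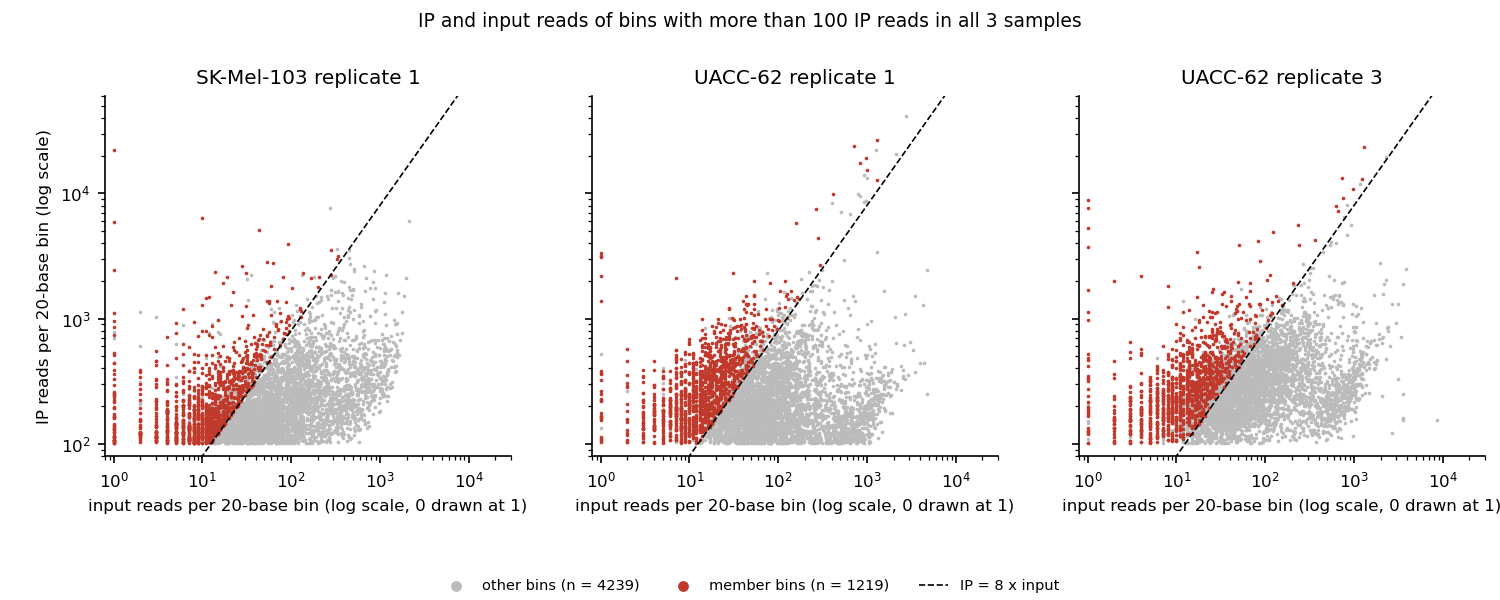
IP reads (vertical axis) against input reads (horizontal axis) per 20-base bin, both on log scales, in each IP sample, for the 1219 member bins (red) and the 4239 other bins with more than 100 IP reads in all 3 samples (grey); the dashed line marks IP at 8 times input. Members lie above the line in every panel, and grey points above it failed the ratio in another sample.

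Most member bins lay in 3′ UTRs, and none was assigned to a coding region when 3′ UTRs took precedence over coding regions of other transcripts. With coding regions first, the 3′ UTR share was 73.42% instead of 73.50%. Of the 1219 members, 896 were in 3′ UTRs (73.5%, Wilson 95% confidence interval 71.0 to 75.9%), and 0 were in coding regions, which allows a share of up to 0.314%. In the background, 3492 bins (82.4%) were in 3′ UTRs and 395 (9.32%) in coding regions. Put the other way, 20.4% of the 4388 3′ UTR bins above 100 IP reads were members, close to the 22.3% of all such bins, whereas none of the 395 coding bins was. Intervals of this kind cover counting error only, and neighbouring bins of one transcript are not independent. By annotation alone, introns held 20 members and 17 background bins, and 5′ UTRs 2 and 1. Exons of coding genes that code for no protein held 15 members, all in CSNK2A2, and 9 background bins. The counts are small, but members made up 54.05%, 66.7% and 62.5% of these bins, respectively, beside 22.3% of all bins above 100 IP reads. Exons of non-coding genes held 60 members and 159 background bins, and introns of non-coding genes 5 and 33. Outside annotated genes on their strand lay 221 members (18.1%), against 133 background bins (3.14%). Small structured RNAs (snRNAs, snoRNAs, ribozymes and related RNAs) held 27 background bins and 0 members.

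The lowest ratio of the 3 samples ordered the regions further. Coding bins made up 47.9% of the 691 bins with a lowest ratio under 0.5, 0.267% of the 1125 bins between 4 and 8, and none above 8. The 3′ UTR share was 93.4% between 4 and 8, 81.1% between 8 and 16, and 32.7% at 32 or more. In that highest class of 98 bins, 23.5% matched ribosomal RNA sequence, described further on.

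**Figure D2:**
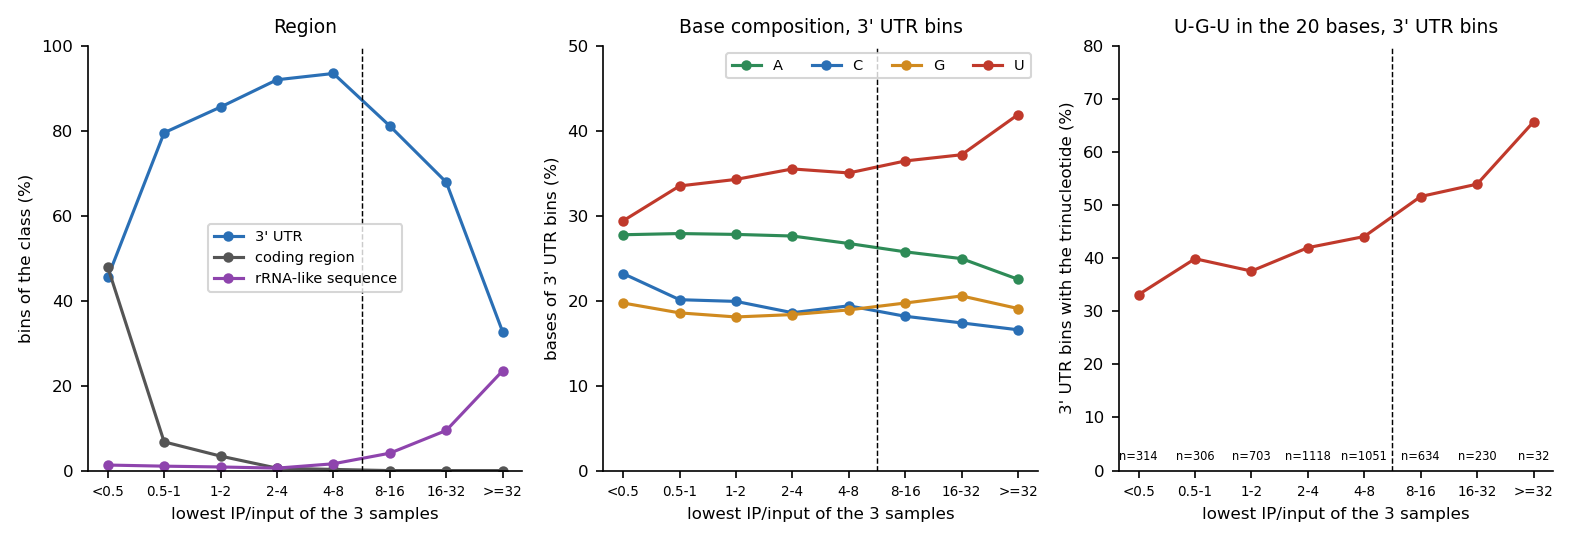
Bins with more than 100 IP reads in all 3 samples, in classes of the lowest IP over input of the 3 samples (horizontal axis), with the share of bins in 3′ UTRs, coding regions and rRNA-like sequence (left), the base composition of 3′ UTR bins (middle) and the share of 3′ UTR bins that hold UGU (right, with the number of bins). The dashed line marks the ratio of 8. Coding bins vanish with rising ratio, and U and UGU become more frequent.

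In all, 140 annotated genes held a member bin. With the bins that match ribosomal RNA kept apart, 133 genes remained, 127 of them protein-coding, out of 577 genes with any bin above 100 IP reads. Members were unevenly spread over them. The 10 genes with the most members held 367 bins (30.1% of all), 50 genes had 5 or more, and 47 genes had a single one.

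The gene with the most member bins was CELF1 itself (chr11:47487485-47587121, minus strand). All 58 of its members lay in the 3′ UTR, out of 68 CELF1 bins above 100 IP reads. Summed over the members, the IP reads were 17268, 20149 and 16349 and the input reads 1132, 963 and 760. The ratios of these sums, 15.25, 20.9 and 21.5, could likewise not fall below 8 by the rule. In the printed bin, which begins 6074 bases behind the stop codon, the IP reads were 511, 539 and 476 against 13, 9 and 8 input reads.

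Along the 3′ UTR of CELF1, the members formed 2 groups. None of the first 3413 bases held a member. The first group lay from 3414 to 4914 bases behind the stop codon (33 members) and the second from 5454 to 6294 bases (25 members), which reaches the annotated end of the transcript. In the stretch ahead of the first group, 157 bins were listed in all samples, with 42.4, 37 and 38.4 IP reads per bin on average, against 253.6, 252.3 and 233.5 in the second group. The input was lower there as well, with 7.37, 4.43 and 2.47 reads per bin against 16.3, 13.9 and 10.8. IP over input ahead of the first group was 5.75, 8.36 and 15.5, and 15.6, 18.2 and 21.7 in the second group. The stretches were therefore set apart by the number of reads in all samples, and by the ratio more in SK-Mel-103 and UACC-62 R1 than in UACC-62 R3.

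**Figure D3:**
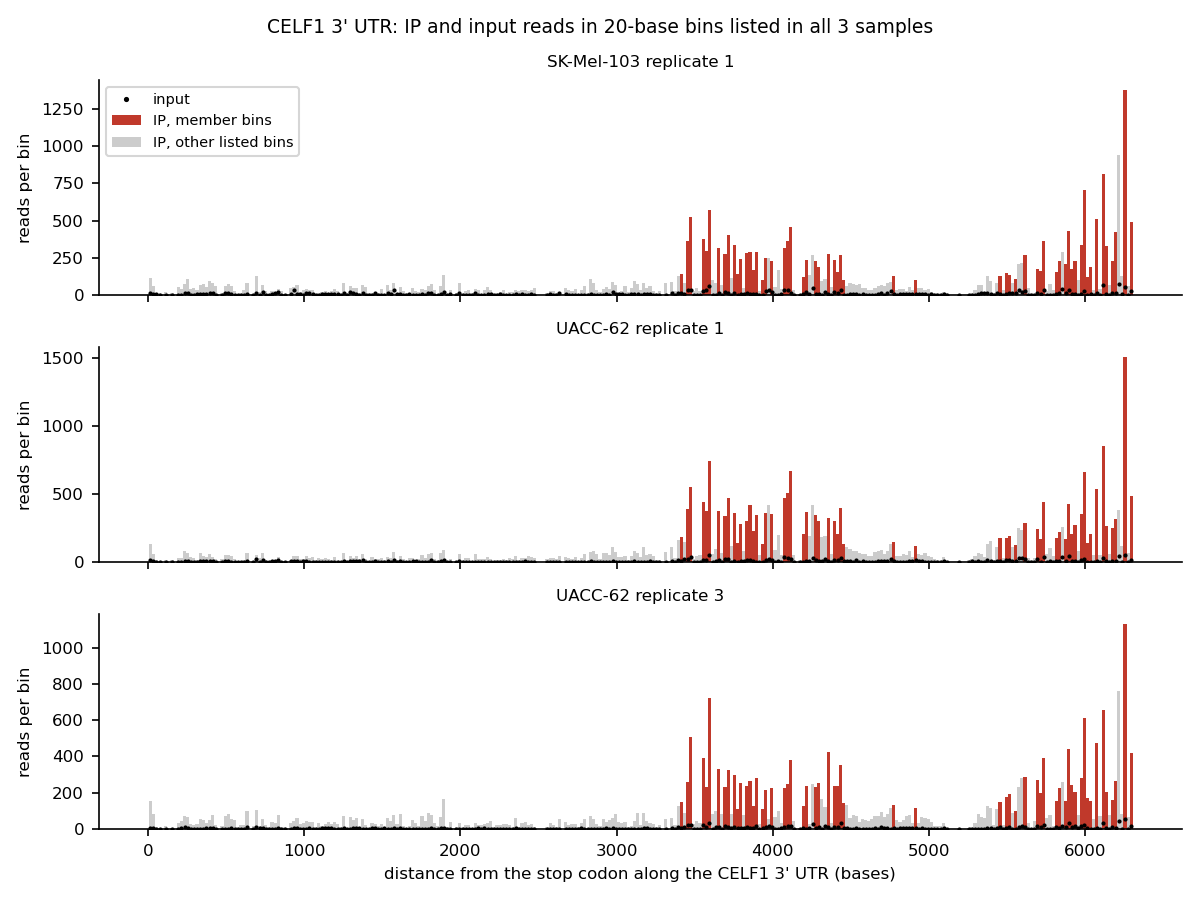
IP reads per 20-base bin (bars) and input reads (black points) along the longest annotated CELF1 3′ UTR, by distance from the stop codon in bases, in the 3 IP samples; red bars are member bins and grey bars other bins listed in all samples. Members appear in 2 groups, from 3414 to 4914 and from 5454 to 6294 bases. The same bins are red in each panel by the rule, since a member passes in all samples.

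CNOT6, a catalytic deadenylase of the CCR4-NOT complex, had 25 members among its 33 bins above 100 IP reads, and ratios of their sums of 15.96, 20.8 and 21.8. SNU13, a protein of the U4 snRNP and of box C/D snoRNPs, had 18 members of 22 bins, with sums of 2842, 9900 and 9748 IP reads and 149, 413 and 297 input reads. Its IP reads were thus lower in SK-Mel-103, and so were its input reads. RNASEH1, the nuclease that removes RNA from RNA-DNA hybrids, had 16 members, and its ratio of 31.4 in UACC-62 R3 exceeded the 12.7 of SK-Mel-103 and the 18.1 of the other replicate. CELF2, a close relative of CELF1, held 3 members, and ELAVL1, the stabilising AU-rich element binding protein HuR, held 1. The strongest CELF2 bin had no input read in SK-Mel-103 and 165 and 126 IP reads against 3 and 3 input reads in UACC-62. Chosen after the values were seen, TARDBP (TDP-43) had 6 members and EIF4E2, a cap-binding protein that represses translation, had 4. Of the 30 genes listed as RNA-binding proteins of splicing and decay, 15 had a bin above 100 IP reads and 3 (CELF1, CELF2 and ELAVL1) had a member, so that 62 of 214 bins (29.0%) were members, beside 22.3% of all such bins, and 58 of the 62 were in CELF1.

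CDK6, the G1 kinase, had 37 members among 102 bins above 100 IP reads, and CCND1, its partner cyclin D1, had 28 among 70. Summed over members, CDK6 had 9753, 18486 and 15102 IP reads and 620, 882 and 796 input reads. CCND1 had 16366, 6625 and 6553 IP reads and 1276, 403 and 339 input reads. CCND1 reads were thus more abundant in SK-Mel-103 in both IP and input, with 2.88 times the mean of UACC-62 in IP and 3.88 times in input once scaled to the total of each list. Its ratios of sums were 12.8, 16.4 and 19.3, and could not fall below 8 because each bin was selected at 8 or more. In bulk RNA, fewer cells with a transcript and less of it per cell cannot be told apart. RRM2, the small subunit of ribonucleotide reductase, had 29 members, with ratios of 11.97, 14.5 and 14.02. GINS1, a subunit of the replicative helicase, had 16, with 14.6, 14.2 and 20.2, although its strongest bin occurs 35 times in the genome. UBE2C, the ubiquitin-conjugating enzyme of the anaphase-promoting complex, had 3 members, the strongest with 150, 220 and 223 IP reads against 5, 10 and 5 input reads. Of the 38 genes listed for cell division and DNA replication, 7 had bins above 100 IP reads, with 123 such bins in all. Of these, 32 (26.02%) were members, all in RRM2 and UBE2C, beside 22.3% of all bins above 100 IP reads. This share holds for the list only, since CDK6, CCND1 and GINS1 lie outside it. Of their bins above 100 IP reads, 37 of 102, 28 of 70 and 16 of 23 were members, respectively, in each gene a larger share than in the list.

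TNPO1, the import receptor transportin-1, had 52 members, second to CELF1, with 12511, 18637 and 14557 IP reads and 712, 1135 and 901 input reads. Its ratios were 17.6, 16.4 and 16.2. XPO4, an export receptor, had 16 members, with ratios of 13.4, 14.5 and 22.5. SEH1L, a nucleoporin, had 15 members, with 13.3, 13.9 and 19.5. TMED10, a cargo receptor between endoplasmic reticulum and Golgi, had 16, and DYNLL2, a light chain of dynein and myosin V, had 18 of its 20 bins as members, with ratios of 17.4, 32.4 and 25.9. CANX, the membrane chaperone calnexin, had 3 members among its bins, the sole gene of the chaperone list with any.

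RAP2A, a small GTPase, had 28 members, and SPRED1, an inhibitor of the RAS to ERK pathway, had 15. FGF13, an intracellular FGF homologous factor that binds sodium channels, had 22 of its 26 bins as members and ratios of sums of 24.1, 29.25 and 33.4, higher than those of the other genes with 15 members or more in SK-Mel-103 and UACC-62 R3, while DYNLL2 was higher in UACC-62 R1. Its printed bin held 241, 874 and 1136 IP reads and 5, 18 and 12 input reads. UHMK1, a kinase that phosphorylates splicing factor SF1, had 22 members but 155 bins above 100 IP reads, so that only 14.2% of its strong bins passed. DCBLD2, a transmembrane receptor-like protein, had 37 members and the largest difference between the lines among the 25 genes with the most members. Its members had 44210, 15601 and 9435 IP reads and 3689, 847 and 626 input reads, which after scaling is 3.98 times the mean of UACC-62 in IP and 5.68 times in input. Its ratio was nevertheless lowest in SK-Mel-103, at 11.98 against 18.4 and 15.1. CSNK2A2, a catalytic subunit of casein kinase 2, had all 15 members in an exon annotated to a transcript that codes for no protein.

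Among the remaining genes, MRPL19, a protein of the mitochondrial ribosome, had 43 members of 49 bins and ratios of 20.1, 24.3 and 31.8. FOXJ3 and CREBL2, both transcription factors, had 29 and 26 members, of 35 and 31 bins. CREBL2 IP reads were 5025, 13330 and 18601, and its input reads 315, 539 and 586, so that the ratio was higher in UACC-62, at 24.7 and 31.7, than in SK-Mel-103, at 15.95. CBX3, the heterochromatin protein HP1 gamma, had 17 members with ratios of 11.4, 12.1 and 11.3 without scaling for depth. Its IP reads were 4156, 16745 and 15816 and its input reads 364, 1386 and 1400. Some genes with fewer members, chosen after their values were seen, stood out in other ways. UBXN7, a cofactor of the p97 ATPase, had 8 members of 9 bins, and the printed one had the highest lowest ratio of any 3′ UTR bin, with 112, 156 and 193 IP reads against 1, 0 and 1 input reads. SERPINE2, a secreted protease inhibitor, had 9 members with 2337 IP reads in SK-Mel-103 but 128418 and 72430 in UACC-62. These were 0.596%, 22.3% and 12.5% of the IP reads of all members. Its input followed, with 143, 5969 and 5563 reads, and the ratios were 16.3, 21.5 and 13.0.

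Several of the gene lists had strong bins but no member. The 55 genes of cytoplasmic ribosomal proteins with bins above 100 IP reads had 153 such bins and 0 members, against the 22.3% of all such bins. Glycolysis genes (9 genes, 87 bins) and the listed genes of the cytoskeleton and its motors (13 genes, 214 bins) had 0 members as well. The latter holds for the list only, since DYNLL2, which lies outside it, had 18 members of 20 bins. Replication-dependent histones (7 bins), nuclear oxidative phosphorylation (6 bins), lysosome, tetraspanin and iron genes (9 bins), and regulators of apoptosis (11 bins) also had 0 members. Their bins are too few to set this count against the 22.3%. In the chaperone list 3 of 150 bins were members, and in the list of extracellular matrix and adhesion 1 of 52, a GC-rich bin within an intron of COL6A2. The integrin ITGB8, outside that list and chosen after its values were seen, had 4 members of 11 bins, all in its 3′ UTR.

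The rest of the transcripts with members was compared over all bins listed in the 3 samples. A region of a gene was measured with at least 5 bins and 20 input reads in each sample. As the same contrast chose the members, this too is a description. The 3′ UTR bins of these 117 genes that were not members had a median IP over input per gene of 5.12, 5.87 and 7.82, and exceeded 1 in all samples in 117 of 117 genes. In genes with background bins only, the 3′ UTR gave medians of 1.81, 1.28 and 2.33, with 199 of the 350 genes measured above 1 in all samples. The coding regions of genes with 3′ UTR members had medians of 1.67, 1.67 and 3.598 (113 genes measured), beside 0.738, 0.418 and 1.001 in the 356 other genes. Among genes with many members, TNPO1 had coding bins at 0.800, 0.640 and 1.27, and MRPL19 at 1.09, 0.513 and 1.74. The gap was small for CREBL2 and FGF13 in UACC-62 R3, where coding bins reached 26.8 and 24.7 against 31.7 and 33.4 in the members.

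**Figure D4:**
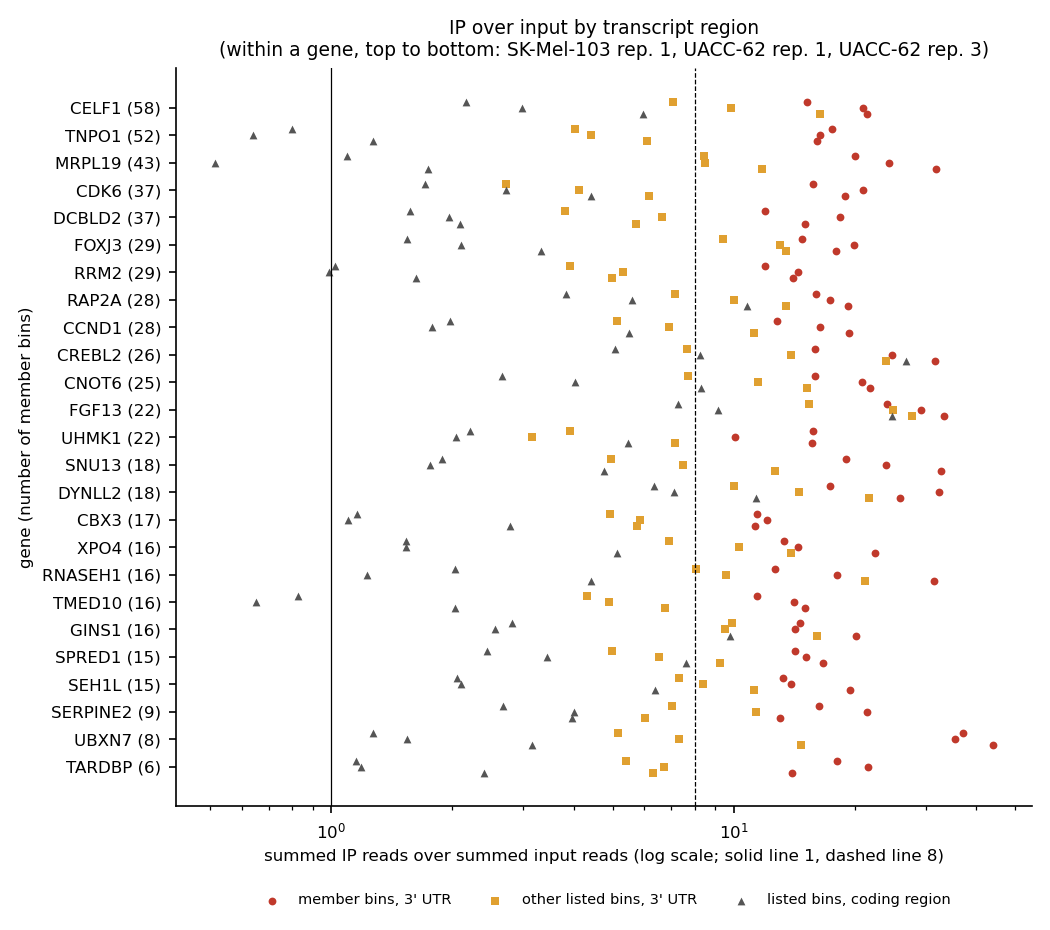
Summed IP reads over summed input reads (log scale) for the named genes with 5 member bins or more in the 3′ UTR (number of member bins in brackets), in member bins (red circles), other listed 3′ UTR bins (yellow squares) and listed coding bins (grey triangles); the 3 points of a kind in a row are the 3 IP samples. Member bins of TNPO1 lie at 16.2 to 17.6 and its coding bins at 0.640 to 1.27, whereas those of CREBL2 come close to each other in UACC-62 R3.

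Members formed short clusters. Bins that touched each other on the same strand were joined, which gave 844 clusters, of which 629 were single bins and 215 had 2 bins or more. The latter held 590 bins (48.4%). Only 17 clusters had 5 bins or more, and the longest spanned 9 bins, or 180 bases. In 3′ UTRs the longest was in CDK6 (chr7:92243241-92243420), followed by TNPO1 (chr5:72206201-72206340) with 7 bins. The bins directly beside 3′ UTR clusters of 2 bins or more had medians of 77.0, 121 and 105.5 IP reads, against 208, 321 and 294 within the clusters. Their ratios were still 11.3, 15.5 and 14.7, against 15.96, 20.3 and 19.7 within. Of the 300 listed neighbours, 147 had a ratio of 8 or more in all samples and 78 had more than 100 IP reads in all, so that clusters ended more often at the limit on reads than at the ratio.

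Members stood farther from the stop codon than background bins did. Measured in the longest annotated 3′ UTR from the first base of the stop codon, the median distance was 1699 bases for 889 members and 915 for 3336 background bins, of which the 1503 in genes with members had a median of 1280. The median distance to the annotated end was 1822 bases for members, 1392 for the background and 1980 for the background of the same genes, so that within the same genes members were also slightly nearer to the end. Only 1.01% of the members were within 200 bases of the stop codon, against 9.89% of the background and 4.13% of the background bins of the same genes. Within 200 bases of the annotated end lay 7.87%, 12.5% and 5.86%, respectively. The members were spread evenly over the first, middle and last part of equal length (32.7%, 34.1% and 33.2%), whereas the background favoured the first (43.2%, 26.9% and 29.9%). The 3′ UTRs of the 117 genes with members were also longer, with a median of 3120 bases against 1842 in the 477 genes with background bins.

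The base composition of 3′ UTR members was richer in U and G than that of other 3′ UTR bins. The 896 members had 36.8% U, 19.9% G, 25.4% A and 17.9% C, and the 3492 other bins had 34.4% U, 18.6% G, 27.4% A and 19.6% C. UGU was present in 472 members, or 52.7% (Wilson 95% confidence interval 49.4 to 55.9%), against 40.7% (39.1 to 42.4%) of the other bins. The other bins of the genes that held members had UGU in 39.7% and those of other genes in 41.5%, so that the difference was seen within the same genes too. GUGU stood in 13.4% of members (11.3 to 15.8%) and 8.82% of other bins (7.92 to 9.81%). CUG was also more frequent, at 36.4% against 31.0%. UUUU stood in 23.2% and 22.4%, and the AU-rich pentamer AUUUA in 3.35% and 3.44%. Motifs were searched on the transcript strand only, and GUGU always contains UGU. A GRE within 2 mismatches stood in 3.57% of members (2.54 to 4.998%) and 2.12% of other bins (1.69 to 2.65%).

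Along the classes of ratio, UGU stood in 33.1% of 3′ UTR bins below 0.5, 44.05% between 4 and 8, 51.6% between 8 and 16 and 65.6% of the 32 bins at 32 or more. Over the same classes U went from 29.4% to 41.9% and C from 23.2% to 16.6%. The difference did not rest on the richest genes, since members outside the 10 genes with the most had UGU in 53.7%. Of the 35 genes with at least 5 members and 5 other strong bins in the 3′ UTR, 25 had UGU more often in members, 9 less often, and the medians over genes were 52.9% and 38.1%. CCNT1 (87.5% against 20.0%) and UHMK1 (68.2% against 39.7%) were among the former, and CAPZA1 (26.7% against 42.9%) and PAFAH1B1 (16.7% against 54.5%) among the latter. With 50 bases added on each side, nearly every 3′ UTR bin held UGU (98.0% and 96.5%), while GUGU still differed (54.5% and 44.7%), as did the GREs within 2 mismatches (25.4% and 16.8%).

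A block on chromosome 19 held more members than any gene. Between 57803981 and 57819860 on the plus strand, 167 members lay in the 3′ UTR of ZNF460, in the lncRNAs ENSG00000288899 and ENSG00000268205, and, for 116 bins, in unannotated sequence that starts 64 bases behind the end of ZNF460. Their summed reads were 31380, 58132 and 58376 for IP and 1797, 2169 and 2128 for input. A similar but smaller stretch followed INCENP on chromosome 11, where 12 unannotated members between 61920781 and 61921160 began 140 bases behind the gene and 9 more lay in the lncRNA ENSG00000289194. The 12 bins held 2992, 2406 and 2719 IP reads, and the highest of their lowest ratios was 39.25.

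Sequence that matches ribosomal RNA made up 87 members (7.14%), against 45 background bins (1.06%). A bin was called rRNA-like when at least 30 bases of the 60 around it matched, with an identity of at least 90%, the stretch of an unplaced GRCh37 contig from 4000 bases before to 7000 bases behind the 5.8S RNA, taken as the ribosomal RNA unit. These members lay at 28 places of the genome. On the transcript strand used here, 78 of the 87 ran opposite to the ribosomal RNA and 9 in its direction. The median number of copies of their 20 bases was 3, and their G and C share was 56.3%, against 37.8% in 3′ UTR members. The protocol given for all samples names a depletion of ribosomal RNA with a commercial kit, whereas the labels call the IP RNA poly A+, and which of these applied to the IP RNA is not settled by them. The 20 bases of 3′ UTR members occurred once in the genome in 81.9%, against 68.0% of the other 3′ UTR bins.

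The bins with the highest ratios of all were mostly GC-rich bins outside 3′ UTRs. The first 9 of the 10 highest had a G and C share of 65.0% or more, 8 of them had no input read in any sample, and their ratio is then only the number of IP reads. The bin with the highest lowest ratio was at chr17:31149541-31149560 on the plus strand, with 5923, 3122 and 8907 IP reads and 0 input reads in each sample.
chr17:31149541-31149560, plus strand: cuccuccccguucacugccg
The same position on the minus strand, in an intron of MYO1D, were a member as well, with 1115, 2197 and 3712 IP reads and 0 input reads. In all, 6 positions were members on both strands, and 8 of these 12 bins were rRNA-like. The others among the 10 were a bin in an intron of COMMD3-BMI1 with 856, 3146 and 5265 IP reads, a bin in the 5′ UTR of SSH3 with its counterpart on the minus strand, and 4 bins outside genes, all but 1 without input. The tenth was a bin of the lncRNA ENSG00000268205 with 132, 227 and 316 IP reads against 1, 1 and 0 input reads. Altogether 18 members had no other bin listed in all samples within 200 bases on their strand, none of them in a 3′ UTR, and their G and C share was 71.1%.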

How the data were processed

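CELF1 RIP-Seq lists of 3 IP samples were used, and the 3 input samples entered through a column of these lists. According to the submitters' processing notes, TopHat2 2.0.4, Bowtie 0.12.7 and SAMtools 0.1.16 were used on GRCh37, and the study's methods name Piranha with bins of 20 bases. As deposited, the count of a bin is its number of IP reads, with no normalization. The p-value deposited by the authors is that of the peak caller and was not used for the rule. The last column deposited by the authors is the input covariate of each bin and not a ratio of IP to input. Whole input reads were recovered from it by dividing by its smallest step, with 0.01 standing for no input. Only bins that passed the caller are listed, so that depth is known for listed bins only (10958459, 11333805 and 14436573 IP reads), and intervals cover counting error only.

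The listed strand was reversed to give the transcript strand, and the bin centre was placed in GENCODE 44 mapped to GRCh37, 3′ UTRs before coding regions. Python 3.11.15, pandas 2.3.3, pysam 0.24.0 and blastn 2.17.0 were used, and the scripts were tested on simulated data. IP over input was not scaled for depth. No test was made, since the members were selected on the compared values. Shares carry Wilson 95% confidence intervals. Named genes were the 25 with the most members (at least 5), those of the 10 highest bins and up to 4 of each of 12 gene lists; UBXN7, SERPINE2, TARDBP and EIF4E2 and the genes named with edges, motifs or unannotated stretches were chosen after their values were seen. The members and lists were chosen with earlier results of these data known. The alternatives tried concerned thresholds, depth, samples, repeats, strand, clustering and windows.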

Additional observations from a re-analysis of the deposited data

How the results depend on the processing

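No paired analysis was possible because the results come from no test; each ratio already sets an IP against its own input. Of the alternatives, 72 values stayed within a tolerance and 54 moved beyond it. The tolerance was 1.5 times for counts, 2.565 (the SD of the sample medians) for the median ratio and the Wilson 95% confidence interval for shares. With more than 30 IP reads, 4253 bins in 394 genes and 2674 clusters passed (78.04% in 3′ UTRs, UGU in 45.17%). With more than 200 IP reads, 413 bins, 71 genes and 326 clusters passed (69.73% in 3′ UTRs, U 33.80%, G plus U 55.50%, G plus C 40.92%). A ratio of 4 gave 2344 bins, 245 genes, 1521 clusters, 83.06% in 3′ UTRs, a median lowest ratio of 8.215, U 35.07%, G plus U 55.18% and UGU in 46.16%. A ratio of 16 gave 437 bins, 72 genes, 335 clusters, 59.95%, a median of 22.55, G plus U 57.70% and G plus C 41.05%.

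Division by list totals left 819 bins, 98 genes and 591 clusters, with 66.91% in 3′ UTRs and G plus C at 40.48%. Without repeated 20-base sequences the 3′ UTR share was 78.67%. With the listed strand as transcript strand, 35 genes had a member and 1.313% lay in 3′ UTRs. Gaps of 100 and 500 bases within a cluster gave 336 and 213 clusters. With each gene counted once, U was 34.99%, G plus U 57.35% and G plus C 41.97%. With 50 bases on each side, U was 36.63%, G plus C 38.36% and UGU stood in 93.93%. Chosen after seeing the data, leaving out rRNA-like bins gave 79.15% in 3′ UTRs, U 36.80% and G plus C 38.22%, and leaving out the block beside ZNF460 gave 84.03% and U 35.10%. The causes were not tested.

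Applied to 2 samples, the rule gave 1386 to 2926 bins, 162 to 242 genes, 952 to 1748 clusters, 73.06 to 79.08% in 3′ UTRs, U 34.65 to 35.84%, G plus U 55.73 to 56.49%, G plus C 39.44 to 40.49% and UGU in 45.59 to 48.20%. Each set contains all 1219 members by construction, since a bin that passes in 3 samples also passes in any 2 of them. The largest counts were those without SK-Mel-103, at 2926 bins, 242 genes and 1748 clusters. The alternative on bins without input was run on bins lacking input in at least 1 sample. Depth limits which bins could pass: a bin needs more than 100 IP reads, so that lowly expressed transcripts with high ratios are not seen.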
